A study of Mus musculus with 2 samples.

Results

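The cells described here are pancreatic tumour cells of the mouse that carried much Vim RNA, which encodes the mesenchymal intermediate filament vimentin, and little RNA of the epithelial adhesion protein gene Epcam. They were chosen by RNA level in the whole-tumour library of a droplet single-cell RNA sequencing study: 303 of the 2550 cell barcodes kept there, or 11.9% (95% exact interval 10.7 to 13.2), and of 7642 barcodes kept in the series. A member had Vim at 2000 CPM or more, at least 1 unique molecular identifier (UMI) of Epcam but less than 1500 CPM of it, summed Krt17 and Gabrp below 200 CPM, no UMI of the leukocyte gene Ptprc, and Col1a1 below 3000 CPM. CPM, the unit of level used throughout, is the UMIs of a gene in each 1000000 UMIs of the barcode or group. They are set against 1140 Epcam-high, Vim-low barcodes of the same library, with Epcam at 1500 CPM or more and Vim below 1000 CPM. Also shown are 120 barcodes that met the rule except that Epcam was at 1500 CPM or more, called high for both genes, and 2261 barcodes that met the whole rule in a second library, sorted for high surface CD9.

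All cells came from tumours of the KPFRR line, in which Flp recombinase under the Pdx1 promoter (Pdx1-Flp) acts in the pancreas. The line also carries, among its alleles, Trp53frt/frt, Rosa26FSF-creER and Rosa26mTmG, the last a membrane fluorescence reporter, and both groups compared share all alleles of the line, the frt-flanked Trp53 included. Per the labels' protocols, collagenase V and then TrypLE freed the cells, GFP or CD9 served to sort live ones, and the Chromium chemistry captured transcript 3′ ends. The animals' age, the number of mice per library and whether both libraries came from the same tumour were not given in the sources used here. Each group is therefore part of 1 library with no replicate, cells are not replicates, no test was made, and every interval covers counting error only. With 1 library each, the CD9 sort and the library cannot be told apart.

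In carcinomas, epithelial cells can lose cell-to-cell junctions and take up a motile, mesenchymal form, a process called epithelial-mesenchymal transition (EMT). Transcription factors of the Zeb, Snail and Twist families repress junction genes by binding E-boxes, short DNA motifs that include the letters CAGGTG. Many carcinoma cells stop part of the way, keeping keratins while expressing vimentin, and such hybrid states are a subject of the series.

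Promoters are shown first because several epithelial genes that were at least 2-fold lower in these cells carried more than 1 E-box there. The letters CAGGTG, on either strand and so also written CACCTG, stood in the 250 bases before the first listed transcription start of 29.3% of the genes at least 2-fold lower in Vim-high, Epcam-low cells (196 of 668 with a promoter sequence). The share was 13.7% for the genes at least 2-fold higher (47 of 342), 14.7% for all measured genes (1119 of 7618) and 17.1% for all 27025 promoters of the table. Of 28 listed genes of junctions and epithelial identity with a promoter, 12 held the letters (42.9%), and of 16 epithelial transcription factors and splicing regulators 6 did (37.5%). CAGGTG is 1 form of the general E-box CANNTG, which stood in 65.9% of the lower and 54.4% of the higher genes, against 55.3% of all measured genes and 66.0% of all promoters of the table. Another form, CATCTG, stood in 11.4% of the lower and 12.6% of the higher genes, against 8.86% of all measured genes and 14.5% of all promoters. The 4 windows below are the 250 bases before the start from RefSeq (GRCm38.p6, written in the direction of the gene), with each CAGGTG or CACCTG in capitals. Rab25 (a GTPase of apical recycling), Cldn7 (a tight junction claudin, second start of the table, as the window of its first start held none), Crb3 (a polarity protein, first start) and Ap1m2 (an adaptor of basolateral sorting) held 2, 2, 3 and 4 of them.
Rab25, chr3:88548280-88548529, minus strand: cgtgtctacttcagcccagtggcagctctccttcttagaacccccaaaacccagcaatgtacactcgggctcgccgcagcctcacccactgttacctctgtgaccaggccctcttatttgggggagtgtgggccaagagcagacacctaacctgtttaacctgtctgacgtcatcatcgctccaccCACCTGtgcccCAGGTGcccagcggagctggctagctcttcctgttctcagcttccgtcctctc
Cldn7, chr11:69965171-69965420, plus strand: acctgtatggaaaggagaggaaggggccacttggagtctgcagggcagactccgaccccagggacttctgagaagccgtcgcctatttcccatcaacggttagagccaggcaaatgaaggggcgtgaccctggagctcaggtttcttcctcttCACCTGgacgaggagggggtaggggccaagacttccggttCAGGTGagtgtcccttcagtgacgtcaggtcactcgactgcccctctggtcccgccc
Crb3, chr17:57061951-57062200, plus strand: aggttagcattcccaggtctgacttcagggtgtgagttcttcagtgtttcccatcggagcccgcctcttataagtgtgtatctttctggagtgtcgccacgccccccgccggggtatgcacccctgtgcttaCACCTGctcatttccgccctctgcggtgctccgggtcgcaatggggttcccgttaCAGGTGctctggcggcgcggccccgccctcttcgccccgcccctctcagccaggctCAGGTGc
Ap1m2, chr9:21312334-21312583, minus strand: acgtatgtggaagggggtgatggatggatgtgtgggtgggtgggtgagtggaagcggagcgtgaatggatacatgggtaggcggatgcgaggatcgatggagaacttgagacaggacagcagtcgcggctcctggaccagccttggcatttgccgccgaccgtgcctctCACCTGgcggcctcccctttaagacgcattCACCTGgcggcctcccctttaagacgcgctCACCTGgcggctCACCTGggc
In Ap1m2 the capitals lie within the last 81 bases before the start, and in Rab25 they begin 64 and 53 bases before it. Summed over the cells, Ap1m2 was at 0.331 CPM in Vim-high, Epcam-low cells and at 39.1 CPM in Epcam-high, Vim-low cells. Rab25 was at 4.14 CPM against 195 CPM, Cldn7 at 43.5 CPM against 595 CPM, and Crb3 at 12.7 CPM against 143 CPM. The upstream windows of Twist1, Npy, Dlk1 and Tnfaip6, which were among the genes higher in these cells, held none. A match of letters is a description of the window and not evidence of binding.

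The 2 groups were of like depth and quality. The median barcode had 20160 UMIs and 4270 genes in Vim-high, Epcam-low cells, and 17595 UMIs and 4131 genes in Epcam-high, Vim-low cells. Mitochondrial UMIs took a median of 3.28% and 3.86%, ribosomal protein genes 14.6% and 17.0% of all UMIs, and the nuclear RNA Malat1 stood at 23751 and 21759 CPM. The groups held 6040821 and 20722587 UMIs in all. Digestive enzyme RNA of acinar cells had a median of 142 CPM in Vim-high, Epcam-low cells and 203 CPM in Epcam-high, Vim-low cells, and it reached 10000 CPM in 3 and 84 barcodes. Its part in the results below was not tested, but without the Epcam-high, Vim-low barcodes with that much of it the counts of genes at least 2-fold higher and lower were 421 and 898, against 438 and 916 with them. Only 2 barcodes occurred in both libraries and none of them was a member.

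Levels of the genes of the rule and of markers of other cell types are given as a description of the members. The rule fixed the limits of Vim and Epcam, so their ranges do not check the label. Vim, which chose the cells, ranged over barcodes from 2049 to 13426 CPM with a median of 4174 CPM, and Epcam from 28.2 to 1499 CPM with a median of 524 CPM. The members nearest the Vim limit had 2049, 2059 and 2066 CPM, and the nearest barcodes outside it 1928, 1847 and 1836 CPM. At the Epcam limit the nearest members had 1499, 1493 and 1487 CPM, and the nearest barcodes outside 1516, 1537 and 1575 CPM. Of markers of other cells with high Vim, 11 of 14 for macrophages or monocytes, 8 of 14 for fibroblasts and 7 of 11 for endothelium had at least 1 UMI in the 303 barcodes, but only 1, 1 and 0 of them reached 5 CPM. Those with no UMI were Adgre1, Itgam and Cd163 of macrophages, Lum, Dpt, Pi16, Col14a1, Fap and C7 of fibroblasts, and Cdh5, Tek, Vwf and Emcn of endothelium. The summed level of 14 fibroblast markers was 0 in 271 barcodes and at most 681 CPM, against at most 1249 CPM in Epcam-high, Vim-low cells. For 14 macrophage or monocyte markers the highest value was 537 CPM against 2361 CPM. These highest values are not a like comparison and do not check the label. Nor do the counts of markers above, since the members had already passed the limits of the rule. Among barcodes that met all other limits, the minimum of 1 Epcam UMI took out 38, the Col1a1 limit 1 and the Ptprc limit 0. Only the 303 members had to meet the Ptprc and Col1a1 limits, and the other group held 1140 barcodes. The summed level of 7 mesothelial markers was higher by its median, 161 CPM against 58.4 CPM. Pooled over each group it was closer, at 230 CPM against 203 CPM. In the 303 barcodes 3 of these markers had a UMI and 1 reached 5 CPM, while Upk3b, Lrrn4, Wt1 and Gpm6a were at 0. The part of this mesothelial level in the results was not tested. Keratin RNA was present, with Krt18 at 3450 CPM and Krt8 at 1673 CPM, so keratin and vimentin RNA occurred in the same cells. GFP, the reporter used for sorting, had no UMI in either group and cannot serve as a check. Trp53 was at 207 CPM against 199 CPM, and as the exons between the frt sites were not given in the sources used here, its 3′ counts check nothing.

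**Figure D1:**
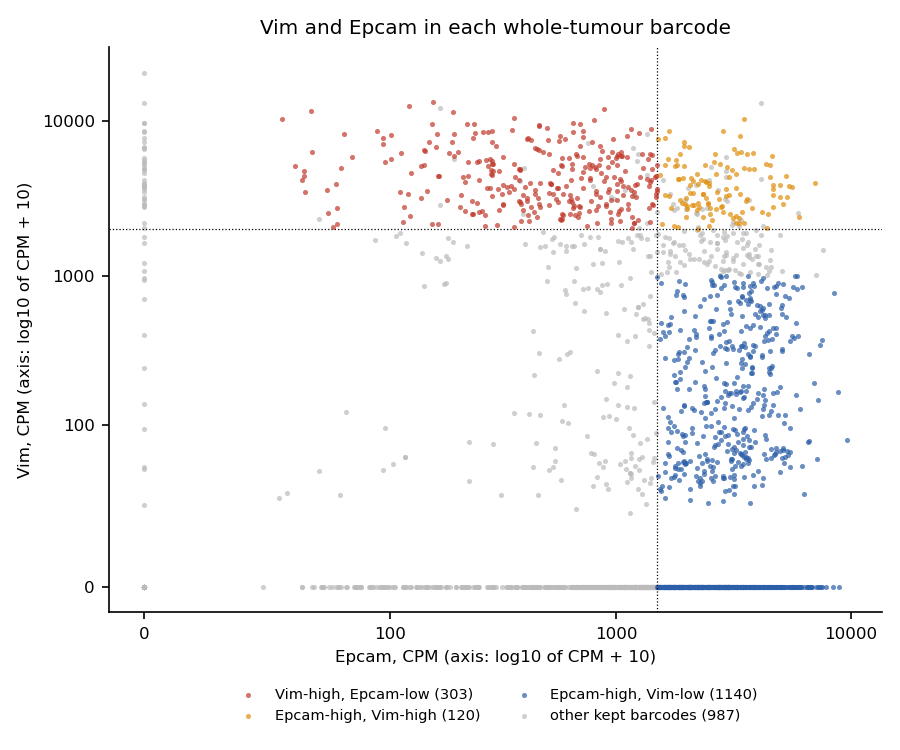
Each point is 1 of the 2550 kept whole-tumour barcodes, with Epcam across and Vim up the page, in CPM on axes of log10 of CPM + 10, and dotted lines mark Epcam at 1500 CPM and Vim at 2000 CPM. The 303 Vim-high, Epcam-low barcodes spread over the whole range of Epcam below the limit without a gap from the 120 that were high for both, and most of the 1140 Epcam-high, Vim-low barcodes lie at or near 0 CPM of Vim.

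The other 4 markers were all higher in the Vim-high, Epcam-low cells, and each was carried by part of them. Twist1, an EMT transcription factor, was at 70.7 CPM in these cells and at 13.0 CPM in Epcam-high, Vim-low cells, a log2 ratio of 2.44 (2.22 to 2.67). Abcb1a, which encodes a P-glycoprotein drug efflux pump, was at 67.0 CPM against 8.59 CPM (log2 ratio 2.96, 2.71 to 3.23). Csf2, the myeloid growth factor GM-CSF, was at 719 CPM against 226 CPM (log2 ratio 1.67, 1.61 to 1.73). Npy, the secreted neuropeptide Y, was at 650 CPM against 94.1 CPM (log2 ratio 2.79, 2.71 to 2.87). These genes were named with the group and are a description, not support for it.

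After each barcode was thinned to 5000 UMIs, leaving 295 of 303 Vim-high, Epcam-low and 1078 of 1140 Epcam-high, Vim-low cells, Csf2 was found in 49.8% (44.0 to 55.7) of Vim-high, Epcam-low and 23.01% (20.5 to 25.6) of Epcam-high, Vim-low cells. Npy was found in 37.6% (32.1 to 43.4) against 7.14% (5.68 to 8.85), Abcb1a in 27.1% (22.1 to 32.6) against 4.64% (3.46 to 6.07), and Twist1 in 25.4% (20.6 to 30.8) against 5.01% (3.79 to 6.49). Acinar barcodes, which should lack these genes, gave the level that free RNA can reach: in 358 of them after thinning, with a median of 17900 UMIs before it, the shares were 3.63% for Csf2, 1.12% for Npy, 0.559% for Abcb1a and 0 for Twist1, where a count of 0 allows up to 0.838%. Without thinning, 60.1% of Vim-high, Epcam-low cells had Csf2, 59.1% Abcb1a, 55.4% Twist1 and 51.2% Npy. All 4 markers occurred together in 48 cells, 3 in 92, 2 in 78, 1 in 60 and none in 25. Npy was the most uneven: its median over cells was 38.9 CPM, its highest value 22108 CPM, and the top 30 cells held 76.2% of its UMIs.

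Across 9713 genes measured at a mean of 5 CPM or more, 438 were at least 2-fold higher in Vim-high, Epcam-low cells (4.51%) and 916 at least 2-fold lower (9.43%), leaving out the 6 genes of the rule. The mean is that of both groups, so a gene under 5 CPM in either group entered only through the other. This holds for the list counts below as well, in both directions. The median log2 ratio of all measured genes was -0.04. Because the cells were chosen on RNA of the same library, these ratios describe the choice and are not tests of it. The highest ratio among genes at a mean of 50 CPM or more was that of Tnfaip6, which encodes a hyaluronan-binding protein of inflammation, at 162 CPM against 4.83 CPM (log2 ratio 5.06, 4.77 to 5.38). Next came the imprinted, Notch-related gene Dlk1, at 122 CPM against 5.405 CPM (log2 ratio 4.49, 4.20 to 4.79), and Rgcc, a regulator of the cell cycle, at 102 CPM against 5.84 CPM. Among the more abundant genes, Timp1, an inhibitor of metalloproteinases, was at 1178 CPM against 136 CPM (log2 ratio 3.11), the neuronal ubiquitin hydrolase gene Uchl1 at 478 CPM against 65.3 CPM, and Stmn2, a regulator of neuronal microtubules, at 468 CPM against 82.9 CPM. Pthlh, the tumour-secreted parathyroid hormone-related peptide, was at 195 CPM against 28.8 CPM. Tppp3, Col6a1, Sdc2, Pla2g7, Fstl1, Sparc, Igfbp3, Jam2, Mxra8, Ggct, Timp3 and Sgk1 made up the rest of the 20 highest beside Npy.

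These leading genes differed in how many cells carried them. Uchl1 had a UMI in 91.1% of the 303 cells and Timp1 in 96.4%, while Tnfaip6, Dlk1, Rgcc, Tppp3 and Sparc were each found in 30.0% to 33.7%. For those 5 genes and Npy, the 15 cells with most held between 56.4% and 68.6% of all UMIs of the group.

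**Figure D2:**
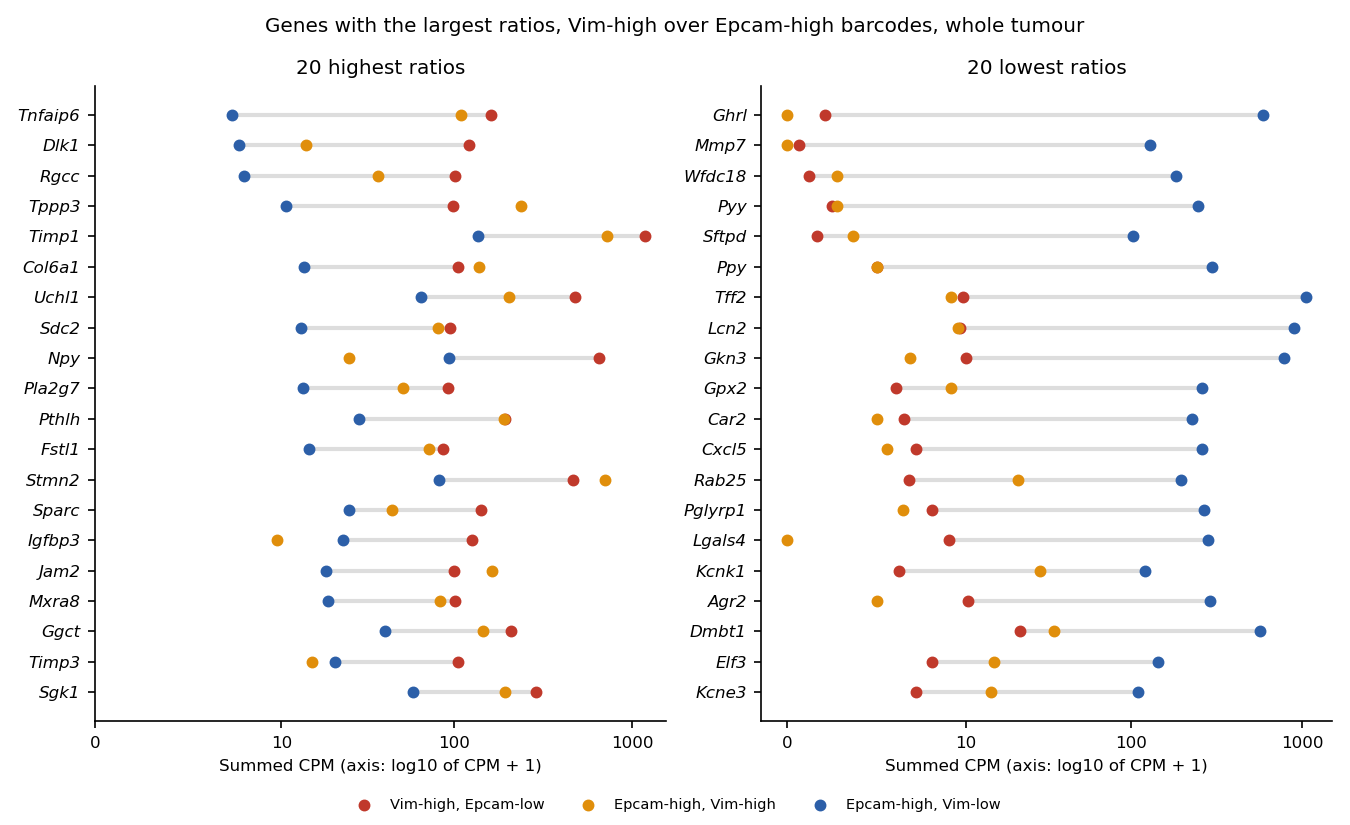
Summed CPM of the 20 genes with the highest (left) and the 20 with the lowest ratio (right) of Vim-high, Epcam-low over Epcam-high, Vim-low cells, at a mean of 50 CPM or more, with points for Vim-high, Epcam-low cells, cells high for both genes, and Epcam-high, Vim-low cells, on axes of log10 of CPM + 1. For the 20 lowest genes the cells high for both had at most 34.99 CPM, far below the Epcam-high, Vim-low cells, and of the highest genes Npy, Dlk1, Igfbp3 and Timp3 were at or below 25.2 CPM in them.

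The lowest ratio was that of the hormone gene Ghrl, followed by the metalloproteinase gene Mmp7 (log2 ratio -9.01), Wfdc18 (-8.80), Pyy and the surfactant protein gene Sftpd (-7.46). The trefoil factor gene Tff2 was at 9.60 CPM in Vim-high, Epcam-low cells and at 1053 CPM in Epcam-high, Vim-low cells, a log2 ratio of -6.76 (-7.17 to -6.41). Lcn2, which encodes the iron-scavenging lipocalin 2, was at 9.10 CPM against 895 CPM, and the gastrokine gene Gkn3 at 9.93 CPM against 784 CPM. Most cells of the comparison group did not carry these genes: Tff2 was in 10.2% of Vim-high, Epcam-low and 35.3% of Epcam-high, Vim-low cells, and Lcn2 in 8.25% against 39.9%. The hormone genes Ghrl (ghrelin), Pyy (peptide YY) and Ppy (pancreatic polypeptide) were at 0.662, 0.828 and 2.32 CPM in Vim-high, Epcam-low cells, against 590, 247 and 297 CPM in Epcam-high, Vim-low cells. Of Epcam-high, Vim-low cells 5.00% had a UMI of Ghrl and 2.72% of Ppy, so these ratios rest on few cells of that group. Of Vim-high, Epcam-low cells 1.32% had Ghrl and 4.29% Ppy, so for Ppy the shares of cells ran opposite to the ratio. Summed islet endocrine markers reached 192226 CPM in the Epcam-high, Vim-low barcodes, against at most 305 CPM in the Vim-high, Epcam-low ones. The part of islet cells or their RNA in these ratios was not tested. By contrast the antioxidant gene Gpx2, at 3.31 CPM against 261 CPM, was in 6.27% against 72.5% of cells, and Rab25 in 4.62% against 86.1%. Car2, Cxcl5, Pglyrp1, Lgals4, Kcnk1, Agr2, Dmbt1, Elf3 and Kcne3 were the others of the 20 lowest.

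Genes of the epithelial programme were lower as groups. Of 41 measured genes of adherens and tight junctions and epithelial identity, 31 were at least 2-fold lower and 0 higher, and the list's median log2 ratio was -1.86, against -0.04 for all measured genes. Over all measured genes 9.43% were at least 2-fold lower and 4.51% higher. The whole-tumour list counts in the paragraphs that follow stand beside the same shares. The claudins were lower but present: Cldn4 was at 196 CPM against 972 CPM and Cldn3 at 70.7 CPM against 424 CPM. Cdh1, E-cadherin, differed much less, at 112 CPM against 236 CPM (log2 ratio -1.08, -1.20 to -0.96), and had a UMI in 76.9% of Vim-high, Epcam-low and 91.3% of Epcam-high, Vim-low cells before thinning. A Cdh1 UMI was left by thinning in 38.6% against 64.9%, but also in 41.3% of acinar barcodes, themselves epithelial.

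Of 22 measured epithelial transcription factors and splicing regulators, 15 were at least 2-fold lower and 0 higher (median log2 ratio -1.71). For this and the next lists, 9.43% of all measured genes were lower and 4.51% higher. Elf3, an epithelial ETS factor, was at 5.96 CPM against 144 CPM (log2 ratio -4.58), Ovol1, a repressor of mesenchymal genes, at 0.331 CPM against 12.3 CPM, and the grainyhead factor Grhl2 at 0.828 CPM against 16.4 CPM. Esrp1, which directs epithelial splicing, was at 12.3 CPM against 40.1 CPM. Among 8 measured keratins 5 were lower, and the cells kept some more than others. Krt19 was at 247 CPM against 1952 CPM (log2 ratio -2.98), Krt8 at 1673 CPM against 3643 CPM (-1.12), Krt7 at 953 CPM against 2070 CPM (-1.12), and Krt18 at 3450 CPM against 4806 CPM (-0.48), short of 2-fold. Genes of the classical subtype of pancreatic cancer, which marks differentiated glandular tumours, were lower in 23 of 26 and higher in none (median log2 ratio -3.61). Secretory and inflamed duct genes were lower in 18 of 21 (median log2 ratio -3.96). Both lists hold Pigr, the receptor that carries antibodies across epithelia, which had no UMI in the 303 cells and was at 18.1 CPM in Epcam-high, Vim-low cells, at least 36.4-fold lower when 3 counts are taken as the floor over the group. With Pigr at its bound the medians of both lists were the same.

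On the mesenchymal side, 5 EMT transcription factors were higher in the whole tumour, though several were rare. Of 21 listed EMT transcription factors 11 were measured, 5 were at least 2-fold higher and 0 lower, and the median log2 ratio was 0.20. Of all measured genes 4.51% were higher and 9.43% lower. Zeb2 was at 62.1 CPM against 11.7 CPM (log2 ratio 2.40, 2.17 to 2.64), Zeb1 at 33.3 CPM against 10.6 CPM (1.65, 1.37 to 1.94) and Snai1 at 8.94 CPM against 2.46 CPM (1.86, 1.28 to 2.44). Snai1 passed the limit of a mean of 5 CPM only through its level in Vim-high, Epcam-low cells. In the CD9hi library 2 of 14 measured EMT transcription factors were at least 2-fold higher and 0 lower (median log2 ratio 0.32). Of all genes measured there 3.8% were higher and 5.87% lower. Zeb2, with a log2 ratio of 0.93 in that library, and Snai1, with 0.62, were short of 2-fold. Prrx1, a homeobox factor of mesenchyme, was nearly absent, with 0.166 CPM in Vim-high, Epcam-low cells and 0.0965 CPM in Epcam-high, Vim-low cells, while in the CD9hi library it stood at 30.7 CPM in Vim-high, Epcam-low cells and 0.105 CPM in Epcam-high, Vim-low cells. Cells that met the same limits in both libraries thus differed in Prrx1.

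Of 36 measured genes of the mesenchymal cytoskeleton, adhesion and motility, 19 were at least 2-fold higher and 0 lower (median log2 ratio 1.05). Again, 4.51% of all measured genes were higher and 9.43% lower. Lox, which cross-links collagen, was at 17.4 CPM against 1.35 CPM (log2 ratio 3.67), the receptor tyrosine kinase gene Axl at 82.8 CPM against 8.35 CPM (3.31), the microfibril gene Fbn1 at 11.9 CPM against 1.54 CPM (2.94), and N-cadherin, Cdh2, at 41.2 CPM against 10.7 CPM (1.94). Of 22 measured collagens and matrix glycoproteins, 12 were higher and 1 lower (median 1.19). Col6a1 was at 105 CPM against 13.8 CPM (2.93), Col6a2 at 46.7 CPM against 2.70 CPM (4.10) and Col5a1 at 9.93 CPM against 0.290 CPM (5.00). Lox, Fbn1, Col6a2 and Col5a1 were below 5 CPM in Epcam-high, Vim-low cells and entered the counts only through Vim-high, Epcam-low cells. Fibronectin, Fn1, was abundant in both groups, at 3389 CPM against 1814 CPM, and its log2 ratio of 0.90 was short of 2-fold. Both counts rested largely on 83 of the 303 cells, cluster 2 below: without them 7 of 34 mesenchymal genes were higher and 3 lower (median 0.64), and 6 of 19 matrix genes were higher and 3 lower (median 0.23).

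**Figure D3:**
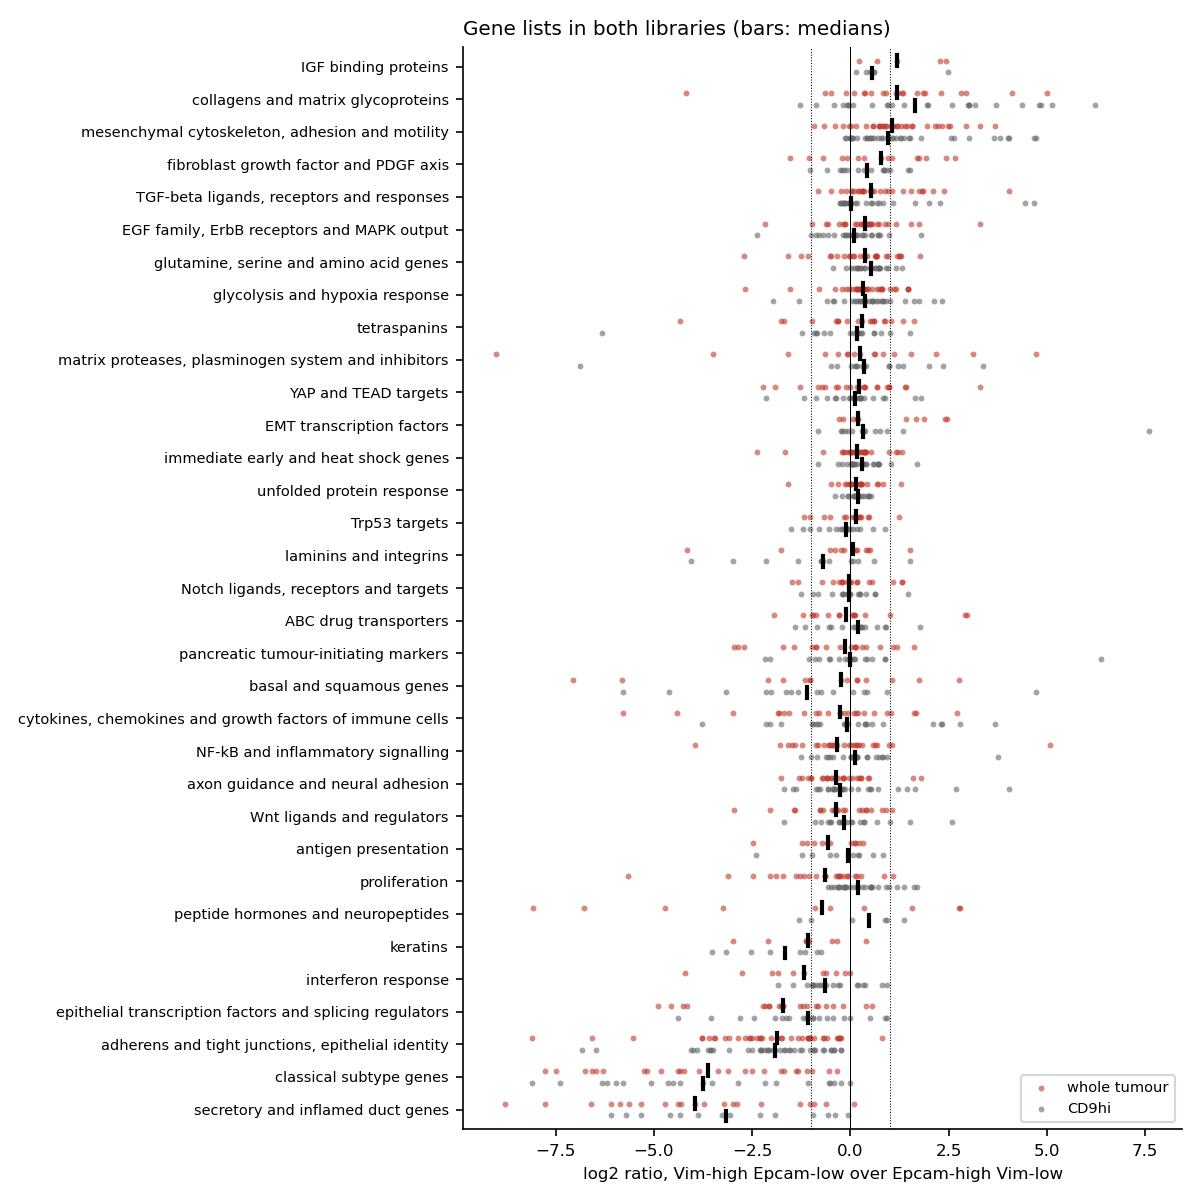
Each point is a measured gene of a list, placed by its log2 ratio of Vim-high, Epcam-low over Epcam-high, Vim-low cells, with the whole tumour above and the CD9hi library below in each line, black bars at the medians, and dotted lines at 2-fold. Lists of junction, classical and secretory genes lie lowest in both libraries, with whole-tumour medians of -1.86, -3.61 and -3.96, and the matrix and mesenchymal lists lie near the top, at 1.19 and 1.05.

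Signalling genes showed smaller and more mixed differences. Over all measured genes 4.51% were at least 2-fold higher and 9.43% lower. Of 29 measured ligands, receptors and response genes of TGF-beta, a main inducer of EMT, 9 were at least 2-fold higher and 0 lower (median log2 ratio 0.53). Bmp2 was at 92.5 CPM against 5.65 CPM (log2 ratio 4.03), Tgfb1 at 262 CPM against 72.3 CPM (1.86), Id3, a target of BMP signalling, at 120 CPM against 28.0 CPM (2.10), and the receptor gene Tgfbr1 at 23.01 CPM against 32.6 CPM. In the axis of fibroblast and platelet-derived growth factors 6 of 15 were higher and 2 lower, among them the receptor gene Fgfr1 at 132 CPM against 34.7 CPM (1.93). Of 29 genes of the EGF family and MAPK output 4 were higher and 1 lower: the ligand Areg was at 1165 CPM against 349 CPM (1.74), and the receptor Erbb3, a partner of Erbb2, at 11.8 CPM against 53.0 CPM (-2.16). Among 5 measured IGF binding proteins and IGF2 mRNA-binding proteins, 3 were higher, and Igfbp4 was the most abundant, at 1803 CPM against 374 CPM (2.27). All 3 measured tissue inhibitors of metalloproteinases were higher, a list added after the values were seen: besides Timp1, Timp2 was at 670 CPM against 149 CPM and Timp3 at 106 CPM against 21.0 CPM.

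The counts that follow stand beside shares of 4.51% higher and 9.43% lower over all measured genes. Of 25 measured cytokines, chemokines and growth factors of immune cells, 4 were at least 2-fold higher and 8 lower. Beside Csf2 the higher ones included Il11 (10.8 CPM against 1.64 CPM) and the prostaglandin synthase Ptgs2 (116 CPM against 37.5 CPM). The neutrophil attractant Cxcl5 was at 4.64 CPM against 259 CPM and Csf3, G-CSF, at 5.30 CPM against 18.9 CPM, so the myeloid growth factors differed in opposite directions. Genes of the interferon response were lower in 6 of 11 measured and higher in none (median -1.18), though their levels were low, as for Isg15 at 1.99 CPM against 8.20 CPM. Of 16 ABC transporters 3 were higher (18.75%) and 2 lower (12.5%). Besides Abcb1a, its close copy Abcb1b was at 50.7 CPM against 6.66 CPM (2.92), and the reads of such copies can be split by the counting. Of 26 proliferation genes 10 were lower and 1 higher (median -0.65), and Mki67, a marker of cycling cells, had no UMI in 303 cells, against 8.40 CPM in Epcam-high, Vim-low cells. The shares of cells differed less for other cycle genes: Top2a had a UMI in 4.95% of Vim-high, Epcam-low and 4.39% of Epcam-high, Vim-low cells, and Birc5 in 7.26% against 6.32%. Over genes at a mean of 50 CPM or more the list's median was 0.13. The gene that was higher was Cdkn2a, which encodes cell cycle inhibitors, at 1786 CPM against 837 CPM. In the CD9hi library 4 of 28 proliferation genes were higher, 0 were lower and the median was 0.19. All genes measured in that library gave shares of 3.8% higher and 5.87% lower. The difference between the libraries was not tested.

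Surface and stem cell markers of pancreatic cancer differed in both directions. Of 20 measured markers of tumour-initiating cells 3 were at least 2-fold higher (15%) and 5 lower (25%), against 4.51% and 9.43% of all measured genes. Cd9 was at 3190 CPM in Vim-high, Epcam-low cells and at 1037 CPM in Epcam-high, Vim-low cells, a log2 ratio of 1.62 (1.59 to 1.65). Nes, the filament nestin, was at 126 CPM against 55.2 CPM and Aldh1a3, an aldehyde dehydrogenase, at 236 CPM against 111 CPM. In the CD9hi library their log2 ratios were 0.42 and -0.14, and Aldh1a3 was short of 2-fold in 3 alternatives of the whole tumour. Prom1, which encodes CD133, was at 21.9 CPM against 159 CPM, the Wnt-related receptor Lgr5 at 2.98 CPM against 23.6 CPM, and Cd24a at 179 CPM against 484 CPM. The Notch ligand Jag1 was at 145 CPM against 58.6 CPM (log2 ratio 1.31, 1.18 to 1.43). Without cluster 2, described below, the log2 ratio of Jag1 was 0.76, and in the CD9hi library it was 0.24, both short of 2-fold. Of 18 measured Notch genes 3 were higher (16.7%) and 2 lower (11.1%, near the 9.43% of all measured genes), and the median was -0.05.

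The 120 cells high for both genes were on most leading genes nearer to the Vim-high, Epcam-low than to the Epcam-high, Vim-low cells. Of the 438 higher genes 329 (75.1%) were nearer on the log2 scale, 295 lay between both groups and 119 lay at or beyond the Vim-high, Epcam-low level. Of the 916 lower genes 670 (73.1%) were nearer, 539 lay between and 320 lay at or beyond the Vim-high, Epcam-low level. At or beyond the Epcam-high, Vim-low level lay 27 of the higher and 37 of the lower genes. These classes do not add up to 438 and 916 and are not an exact split. The cells high for both met every limit of the rule except that of Epcam, while the Epcam-high, Vim-low cells did not have to. Nearness to the members is thus not independent of the choice of cells. The cells high for both are not midway for every role. Csf2 was at 1243 CPM in them, against 719 CPM in Vim-high, Epcam-low and 226 CPM in Epcam-high, Vim-low cells, and Jag1 at 258 CPM, against 145 and 58.6 CPM. Both stood highest in the cells high for both genes. Krt7, at 3294 CPM there, and Krt8, at 4512 CPM, were also above both other groups, while Npy, at 25.2 CPM, was below both. Rab25 was at 21.0 CPM in them, against 4.14 CPM in Vim-high, Epcam-low and 195 CPM in Epcam-high, Vim-low cells, and Elf3 at 14.9 CPM, against 5.96 and 144 CPM, so both lay between the other groups. After thinning, Cldn7 was in 53.2% of cells high for both, against 20.7% of Vim-high, Epcam-low and 87.5% of Epcam-high, Vim-low cells. Cdh1 was in 60.4% of them, near the 64.9% of Epcam-high, Vim-low cells and above the 38.6% of Vim-high, Epcam-low cells.

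The Vim-high, Epcam-low cells were themselves graded by Epcam. Cut into 3 equal groups of 101 by Epcam, from low to high, Krt7 was at 416, 792 and 1686 CPM, Krt19 at 143, 193 and 412 CPM, and Cdh1 at 70.7, 124 and 144 CPM. Npy ran the other way, at 960, 795 and 177 CPM, as did Dlk1, at 174, 136 and 51.1 CPM, and Timp1, at 1619, 1032 and 853 CPM. Csf2, at 557, 743 and 867 CPM, ran with Epcam. Zeb1, at 35.6, 30.2 and 33.9 CPM, showed no such order, its counting intervals overlapping. The median depth was 20954, 19478 and 19156 UMIs in these groups.

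Leiden clustering of the 303 cells alone gave 4 clusters of 110, 83, 62 and 48 cells, which are left unnamed, and their leading genes are the genes that formed them. Cluster 1 was led by Mthfd2, Psph, Phgdh and Asns, enzymes of serine, folate and asparagine synthesis, and by Atf5: Phgdh was at 282 CPM in it and 107 CPM in the other members, and Mthfd2 at 112 CPM against 21.2 CPM. It also held the most Twist1, at 109 CPM against 48.7 CPM in the other members. The highest ratios of cluster 2 over the other members were those of Xirp2, in 6.02% of its cells, S100g, in 9.64%, and Gng11, a G protein subunit gene, in 43.4%, and Ifi27 was also among its 8 leading genes. The matrix glycoprotein tenascin C, Tnc, was at 2933 CPM in it and at 122 CPM in the other members, Fstl1 at 299 CPM against 13.2 CPM, Mxra8 at 328 CPM against 22.1 CPM, and the latent TGF-beta binding protein gene Ltbp2 at 96.6 CPM against 3.80 CPM. In cluster 2, Tnfaip6 stood at 486 CPM and Sparc at 428 CPM, Csf2 at 1032 CPM and Jag1 at 276 CPM, and Krt7 at 1618 CPM. Dlk1 had no UMI there and Npy was at 32.6 CPM.

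Cluster 3 held the secreted peptide and imprinted genes. Npy was at 1810 CPM in it and at 297 CPM in the other members, Dlk1 at 394 CPM against 38.6 CPM, Igfbp3, a binding protein of insulin-like growth factors, at 370 CPM against 52.9 CPM, and Fst, the activin antagonist follistatin, at 103 CPM against 26.3 CPM. Rian, a noncoding RNA of the imprinted domain of Dlk1, was at 124 CPM against 34.8 CPM, and Meg3, another, at 1167 CPM in cluster 3 and between 177 and 480 CPM in the other clusters. Over all members Meg3 was at 554 CPM, against 130 CPM in Epcam-high, Vim-low cells. Cluster 3 had the most Cd9, at 4211 CPM, and the least Epcam, at 356 CPM. Cluster 4 was led by Tff1, Ifitm1, Reg3g, Reg1 and Prss2, the last 2 products of acinar cells, with Reg1 at 2142 CPM in it and 38.0 CPM in the other members. A minority of its cells carried them: Reg1 had a UMI in 37.5% of cluster 4, against 41.9% of cluster 3 and 33.7% of cluster 2, and Prss2 in 41.7%, against 51.8% of cluster 1. It had the lowest Vim of the 4 clusters, at 3750 CPM, and all 4 of the members with the highest doublet scores. The part of acinar RNA and doublets in cluster 4 was not tested. Without cluster 4, 495 genes were at least 2-fold higher and 975 lower.

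The clusters set the size of several leading ratios. Without cluster 2 the log2 ratio of Tnfaip6 was 3.34, that of Col6a1 1.00 and that of Sparc 0.73, which is short of 2-fold. Of the 20 highest genes, Mxra8 had 0.23 without cluster 2, against 2.42 with it, and Fstl1 turned to -0.14, against 2.58. Without cluster 3 the log2 ratio of Npy was 1.66 and that of Dlk1 2.84. Twist1, between 1.91 and 2.73, and Timp1, between 2.84 and 3.24, depended less on any 1 cluster.

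**Figure D4:**
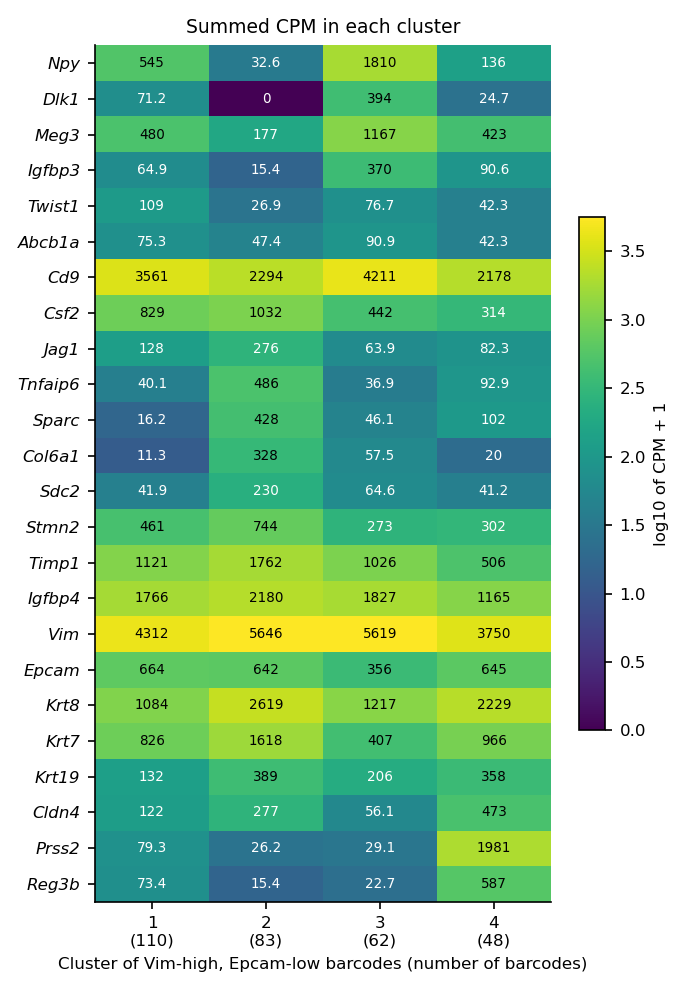
Summed CPM of 24 genes in the 4 clusters of the 303 Vim-high, Epcam-low cells, printed in each field and coloured by log10 of CPM + 1, with the number of cells under each cluster. Npy and Dlk1 peak in cluster 3, at 1810 and 394 CPM, Tnfaip6, Sparc and Col6a1 in cluster 2, at 486, 428 and 328 CPM, and Prss2 in cluster 4, at 1981 CPM.

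Position in the genome was not used by the rule. The chromosome of 98.5% of the measured genes could be taken from the RefSeq gene table. Chromosome 6 stood apart: the median log2 ratio of its 493 measured genes, Vim-high, Epcam-low over Epcam-high, Vim-low, was 0.14, while the medians of the other autosomes and of X lay between -0.09 and 0.06. On chromosome 6, 8.52% of genes were at least 2-fold higher, against 4.51% of all measured genes. Npy, Pthlh and Ggct of the 20 highest genes lie there. The shift was larger in clusters 1 and 3, which had been formed with these genes included and whose chromosome 6 medians were 0.22 and 0.21, against medians of the other chromosomes of at most 0.08 and -0.0034. In cluster 2 the chromosome 6 median was -0.09, the lowest of its chromosomes, and in cluster 4 it was 0.06, above the other chromosomes there, whose highest median was 0.04.

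The same was seen cell by cell in 470 genes of chromosome 6, without Npy, acinar and Reg genes and the most abundant genes. They gave a median of 3.44% of UMIs in the cells of cluster 1 (5th to 95th percentile 2.85 to 4.03) and 3.44% in cluster 3 (3.00 to 3.81), but 2.60% in cluster 2 (2.25 to 3.07) and 2.94% in cluster 4 (2.10 to 3.69). The Epcam-high, Vim-low cells had a median of 2.57% (1.97 to 3.73), and the cells high for both 2.74%. The 5th percentiles of clusters 1 and 3 thus lay close to the 95th percentile of cluster 2. In the CD9hi library the Vim-high, Epcam-low cells had a median of 2.63%, the Epcam-high, Vim-low cells 2.89%, and the chromosome 6 median log2 ratio was -0.07. The difference between the libraries was not tested.

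**Figure D5:**
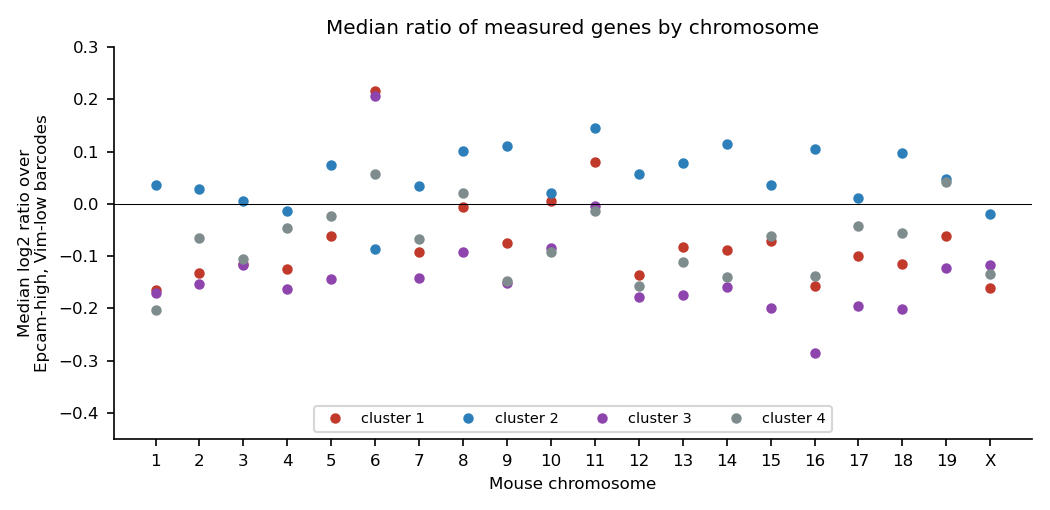
Median log2 ratio over the Epcam-high, Vim-low cells of the measured genes of each mouse chromosome, for each of the 4 clusters of Vim-high, Epcam-low cells. Chromosome 6 lies at 0.22 and 0.21 in clusters 1 and 3, above all their other chromosomes, at 0.06 in cluster 4, where the next was 0.04, and at -0.09 in cluster 2, below all of its others.

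The CD9hi library gave the same contrast a second reading. The rule was set with earlier results of these data known, and the same Vim and Epcam limits chose the cells there. Agreement in sign between the libraries is thus not independent of the choice of cells. The rule was met by 11.9% of the whole-tumour barcodes and by 44.4% (43.0 to 45.8) of the 5092 kept CD9hi barcodes, where the Epcam-high, Vim-low cells numbered 469. Median depth in that library was 22784 UMIs in Vim-high, Epcam-low and 19467 UMIs in Epcam-high, Vim-low cells. Of the 438 genes at least 2-fold higher in the whole tumour 424 were measured in the CD9hi library, 177 (41.7%) were at least 2-fold higher and 397 (93.6%) had the same sign, against 3.22% and 46.3% of all genes measured in both. Of the 916 lower genes 663 were measured, 370 (55.8%) were at least 2-fold lower and 606 (91.4%) had the same sign, against 5.58% and 53.7% of all. In the CD9hi library as a whole 3.8% of 9537 genes were called higher and 5.87% lower. Across 9163 genes the log2 ratios of both libraries had a Pearson r of 0.75 and a Spearman rho of 0.58, as a description, since genes are not independent.

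Junction and classical genes were lower there too, while most of the markers were short of 2-fold. In the CD9hi library 30 of 41 junction genes and 16 of 21 classical genes were at least 2-fold lower, against 5.87% of all genes measured there. Rab25 was at 1.17 CPM in Vim-high, Epcam-low and 134 CPM in Epcam-high, Vim-low cells of that library. Uchl1 was at 492 CPM against 86.5 CPM there, and Igfbp4 was the gene with the highest ratio of its list in CD9hi, with a log2 ratio of 2.49. Npy was at 266 CPM in Vim-high, Epcam-low cells and 258 CPM in Epcam-high, Vim-low cells (log2 ratio 0.05), Cd9 at 2331 CPM against 2205 CPM (0.08), Csf2 at 642 CPM against 441 CPM (0.54) and Dlk1 at 38.2 CPM against 32.3 CPM (0.24). Abcb1a, at 86.9 CPM against 46.3 CPM (0.91), was short of 2-fold, and Twist1, at 94.96 CPM against 37.6 CPM (1.33), passed it. For Npy, Cd9, Csf2, Dlk1, Abcb1a and Twist1 the Epcam-high, Vim-low cells of the CD9hi library had more RNA than those of the whole tumour. Whether the ratios differ between the libraries was not tested.

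Set directly against the Vim-high, Epcam-low cells of the CD9hi library, 132 of 9240 measured genes were at least 2-fold higher in those of the whole tumour (1.43%) and 215 lower (2.33%). The highest included acinar and regenerating products, such as Reg1 (334 CPM in the cells of the whole tumour, 12.8 CPM in those of the CD9hi library) and Prss2 at 321 CPM against 18.9 CPM, and the trefoil gene Tff1 at 115 CPM against 1.83 CPM. Few cells of cluster 4 carried these levels: Tff1 was at 805 CPM in it, from 18.75% of its 48 cells, and at 2.5045 CPM in the other members, while Prss2 was at 1981 CPM against 49.7 CPM, and 15 members held 91.6% of its UMIs. These genes were plentiful in the acinar barcodes of the whole tumour, with Reg1 at 34849 CPM and Prss2 at 55744 CPM, and such barcodes numbered 378 there and 4 in the CD9hi library. The part of free acinar RNA was not tested. The ribosomal RNA Rn18s was at 19895 CPM against 1945 CPM, a difference the Epcam-high, Vim-low cells showed as well, at 23667 CPM against 2880 CPM. Lower in the whole tumour were Sprr1a, a cornified envelope gene, at 46.5 CPM against 299.6 CPM, Bst2, an interferon-induced restriction factor, at 33.8 CPM against 118 CPM, Plac8 at 63.9 CPM against 171 CPM, and the monocyte attractant Ccl2 at 40.7 CPM against 97.9 CPM.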

How the data were processed

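Droplet single-cell RNA libraries of 2 samples were used, 1 of the whole tumour (3082 barcodes, 48287984 UMIs) and 1 of CD9hi cells (5500 barcodes, 120451299 UMIs). Per the file headers, the authors deposited unnormalized UMI counts for each gene in each barcode. The submitters' processing notes name GRCm39 and Cell Ranger 7.0.0, while the file headers record Cell Ranger 6.1.2. Neither says how intronic reads were treated, and counting them would raise long genes. Of 55361 features, 1705 share a symbol, and copies of gene families can split reads.

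A barcode was kept from 500 genes and 1000 UMIs upward if mitochondrial UMIs did not exceed 20%, and 532 whole-tumour and 408 CD9hi barcodes did not pass. Doublets were not removed, since the rule does not; removing the highest Scrublet scores, at 0.8% per 1000 barcodes, was an alternative and took out 4 of the 303 members. Counts were summed over each group and divided by their total. Ratios are log2 with 0.5 counts added to each sum, called means at least 2-fold at a mean of 5 CPM, and intervals are 95% exact Poisson, conditional binomial or Clopper-Pearson. Simulated counts for 9713 genes were used to check these steps. Clusters of members used scanpy 1.11.5 with 1000 variable genes and leidenalg 0.10.2. Trimmed-mean scaling in edgeR 4.0.16 was an alternative.

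The members, gene lists and markers were chosen with earlier results of these data known. Genes were named as the 20 highest and 20 lowest ratios at a mean of 50 CPM, the 3 highest and lowest past 2-fold in each list, the 8 leading genes of each cluster and of the comparison with CD9hi, genes opposite in CD9hi, and list genes that describe a role. Alternatives that leave out a cluster were chosen after seeing the data, as were the lists of imprinted genes, neural-type genes and tissue inhibitors of metalloproteinases. Some items are not reported here.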

Additional observations from a re-analysis of the deposited data

Results flagged for a closer look

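Digestive enzyme genes and 1 islet hormone gene, at a mean of 50 CPM or more, ran in opposite directions past 2-fold in the whole tumour and the CD9hi library, as log2 ratios of Vim-high, Epcam-low over Epcam-high, Vim-low cells, and these differences between the libraries were not tested. The chymotrypsinogen gene Ctrb1 had a log2 ratio of -3.50 in the whole tumour and 1.22 in the CD9hi library. Few CD9hi barcodes stand behind such ratios: Ctrb1 had a UMI in 2.17% of Vim-high, Epcam-low and 3.20% of Epcam-high, Vim-low cells there, an order opposite to its ratio, and Prss2 in 1.95% against 0.853%. The lipase-related gene Pnliprp1 had -2.96 and 5.55, and the trypsinogen genes Prss2 and Try5, which are near copies of each other, had -2.49 and 3.73 and -2.56 and 1.16. The hormone gene Ppy had -6.95 and 2.20. All 5 were at 140 CPM or more in the 378 acinar barcodes of the whole tumour, with Ctrb1 at 157431 CPM. In the CD9hi library their levels in Vim-high, Epcam-low cells were low, from 11.4 CPM for Try5 to 87.9 CPM for Ctrb1, and Pnliprp1 was at 0.211 CPM in its Epcam-high, Vim-low cells. The part of free acinar RNA in these ratios was not tested.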

How the results depend on the processing

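No paired analysis was possible because the groups compared are cells of the same library, and neither library has a replicate. Counting rules moved the counts most. With no minimum CPM, 3026 genes were higher and 4696 lower, with a minimum of 50 CPM 120 and 125, and with a 1.5-fold limit 1049 and 1709. The whole tumour against CD9hi then gave 8495, 46 and 1336 genes, and 532 with no minimum of Epcam UMIs. Of the higher genes, the share past 2-fold in CD9hi was 32.8%, 29.5%, 65.1% (1.5-fold in CD9hi), 93.6% (any size) and 32.9% (without cluster 2). Of the lower genes it was 41.0% with no minimum, 66.7% at 50 CPM, 62.7% with 5 counts added, 51.9% at 1.5-fold, 72.2% at 1.5-fold in CD9hi, 91.4% at any size, 44.4% after thinning, 63.0% with no Epcam minimum and 46.7% without cluster 2. The share of called genes on which cells high for both were nearer the members, 73.8%, was 55.8% with no minimum, 81.2% at 50 CPM, 67.1% at 1.5-fold, 65.5% after thinning, 76.2% with the other limits of the rule put on the comparison cells, 71.2% without acinar RNA, 60.4% without cluster 2 and 77.3% without cluster 3. Members were 9.02% of barcodes with Vim at 3000 CPM, 13.4% with no Epcam minimum and 9.90% of unfiltered barcodes. The log2 ratios of Fstl1 and Tspan6 turned to -0.14 and -0.29 without cluster 2. Of list medians, 576 values stayed within 1.5-fold of the main value and 17 moved further. Of named genes, 2572 values stayed, 150 moved and 2 reversed. Only values past 2-fold in the main analysis could count as reversed. The median of the peptide hormone list, -0.72 in the main analysis, reached 2.17 in 1 alternative. Trimmed-mean scaling shifted the median of all genes by 0.05 and a minimum of 50 CPM by 0.14. The causes were not tested, beyond fewer or more genes and cells entering. Depth limits genes under 5 CPM, where few UMIs stand behind a ratio.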

Other observations

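Some genes known from neurons were higher in the Vim-high, Epcam-low cells. Of 15 measured neural-type genes, a list added after the values were seen, 8 were at least 2-fold higher than in Epcam-high, Vim-low cells and 0 lower, with a median log2 ratio of 1.14, and in the CD9hi library 8 of 17 were higher, with a median of 0.94. Beside Uchl1 and Stmn2, the neuronal tubulin gene Tubb3 was at 19.7 CPM in Vim-high, Epcam-low cells and 3.57 CPM in Epcam-high, Vim-low cells, while the CD9hi values were 30.3 and 4.32 CPM. Stmn2 had its highest level in the cells high for both genes, at 707 CPM. Within the members the leading genes did not go together: Stmn2 was highest in cluster 2, at 744 CPM, where Uchl1 was lowest, at 374 CPM. The list of axon guidance and neural adhesion, which was not added in this way, had a negative median log2 ratio, -0.36. At least 2-fold higher were 2 of its 28 measured genes (7.14%), and 4 lay at least 2-fold lower (14.3%). For all measured genes these shares stood at 4.51% and 9.43%. In the CD9hi library the list's median was also negative, -0.26. More of its 30 genes there passed 2-fold upward (5, or 16.7%) than downward (3, or 10%). All genes measured in that library gave 3.8% and 5.87%.

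Imprinted genes, also listed after the values were seen, were at least 2-fold higher in 5 of 17 (29.4%) and lower in 2 (11.8%). The shares of all measured genes were 4.51% and 9.43%. H19, a noncoding RNA of fetal tissue, was at 26.3 CPM in Vim-high, Epcam-low cells and 1.25 CPM in Epcam-high, Vim-low cells, while the CD9hi values were 40.8 and 0.738 CPM. Dlk1 and Meg3 differed in the whole tumour but in the CD9hi library had log2 ratios of 0.24 and 0.37. Xist, the RNA of the inactive X chromosome, was at 335 CPM against 1019 CPM in the whole tumour and 339 CPM against 584 CPM in CD9hi cells.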
